A study of Mus musculus with 6 samples.

Results

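The genes described here encode ligands of the tumour necrosis factor (TNF) superfamily. They were chosen by symbol: Tnf, Lta, Ltb, Tnfsf4, Cd70, Tnfsf8, Tnfsf10, Tnfsf11, Tnfsf14 and Fasl. All 10 were among the 23183 genes listed in each library. RNA was sequenced from primary group 2 innate lymphoid cells (ILC2) of the lung of wild-type (WT) mice, lymphocytes that lack antigen receptors and release type 2 cytokines. The 3 DTA-1 libraries came from cells given DTA-1 for 24 h, an antibody that activates GITR, itself a receptor of the TNF family. The 3 IgG2b isotype libraries came from cells given an isotype control antibody for the same time. Every culture in either group also held IL-2, IL-7 and IL-33 at 10 ng/ml, so all cells were already activated by cytokines. Strain, age and sex of the mice, the way the cells were isolated, and whether libraries came from separate animals or cultures are not given in the labels. The p-values therefore reflect how these libraries vary, and part of that variation may be technical.

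TNF family ligands are made as trimers, mostly on the cell surface, and each binds a partner from the family of TNF receptors on a neighbouring cell. Several of them, OX40 ligand (Tnfsf4), CD70 and CD30 ligand (Tnfsf8), costimulate lymphocytes. Others recruit and activate inflammatory cells (TNF), organise lymphoid tissue (the lymphotoxins), drive osteoclast formation (RANKL, from Tnfsf11) or trigger cell death (TRAIL, from Tnfsf10, and Fas ligand). ILC2 are known to use surface OX40 ligand to costimulate T cells in the lung. DTA-1 replicate 1 stood apart from the other DTA-1 libraries for several ligands, so their fold changes are given with and without it. The comparison asks how GITR engagement alters these transcripts in cytokine-activated ILC2.

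With DTA-1, transcripts of 6 of the 10 ligands lay above every isotype library: Tnf, Lta, Tnfsf4, Cd70, Tnfsf8 and Tnfsf11. Over all tested genes, 11.2% were higher without overlap and 10.5% lower without overlap. Ratios of group means, DTA-1 over isotype, were 3.40 for Tnfsf8, 2.39 for Lta, 2.15 for Tnfsf4, 2.05 for Cd70, 2.02 for Tnf and 1.41 for Tnfsf11. Without DTA-1 replicate 1 they were 1.98 for Tnfsf4, 1.91 for Cd70, 1.85 for Tnfsf8, 1.73 for Tnf, 1.67 for Lta and 1.26 for Tnfsf11. For Ltb, Tnfsf10 and Tnfsf14 the groups overlapped, and Fasl was at or near 0 throughout. None of the 9 ligands tested passed limma's test at an adjusted p of 0.05 over all 10501 tested genes. At that threshold 0.0286% of tested genes were higher and 0.00952% lower. With library quality weights, an alternative fit, Tnf, Tnfsf4 and Cd70 passed (limma adjusted p = 0.0145, 0.0127 and 0.0292), and 1.53% of tested genes were higher and 2.99% lower. Their log2 fold changes in that fit were 0.76 ± 0.12, 0.88 ± 0.13 and 0.77 ± 0.16. It rested mostly on DTA-1 replicate 2 and isotype replicate 3. The weights were 0.5, 5.95 and 1.71 for DTA-1 replicates 1, 2 and 3, and 0.423, 0.263 and 1.77 for isotype replicates 1, 2 and 3. In the unweighted fit the same 6 ligands had an unadjusted p under 0.05, all of them higher with DTA-1, against 6.22% of tested genes higher and 7.73% lower. In bulk RNA, a different share of cells that express a gene and a different amount of RNA per cell cannot be told apart. The median log2 fold change was 0.97 over the 9 tested ligands and 0.01 over all tested genes. FPKM, the unit used throughout, scales fragments by transcript length and by library depth, so levels of different genes can be compared. Log2 fold changes are DTA-1 over isotype, computed from log2(FPKM + 1), and carry the standard error from the fit.

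**Figure D1:**
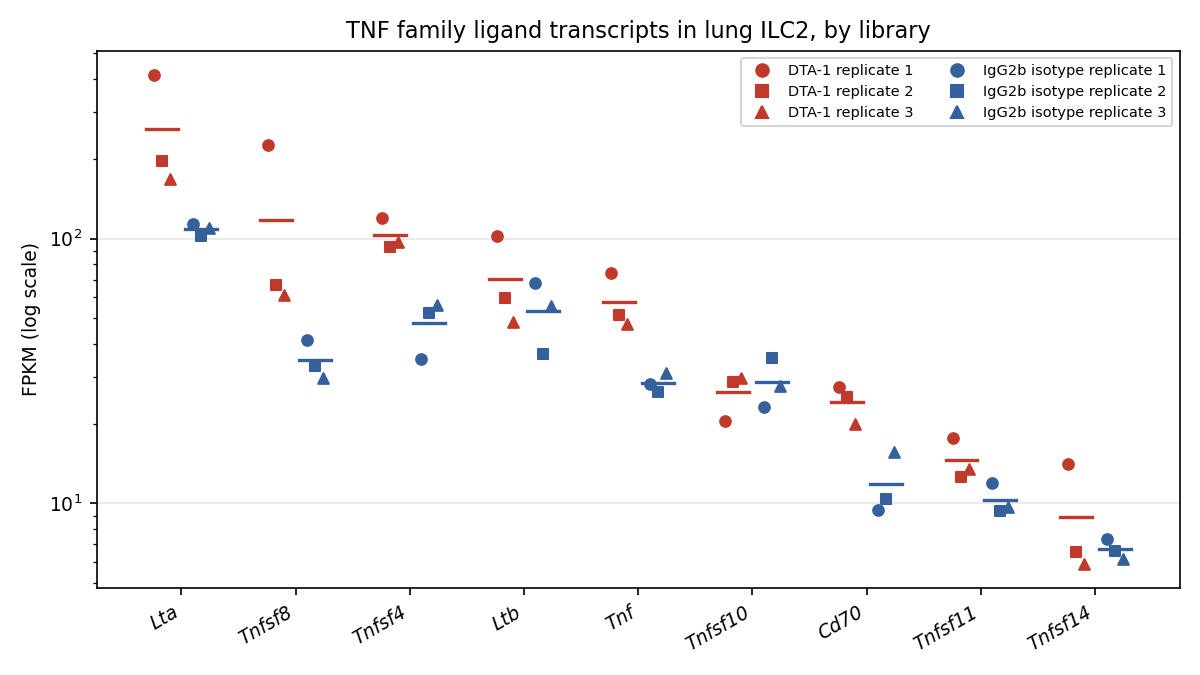
FPKM on a log scale for 9 ligands, with DTA-1 libraries left (red) and IgG2b isotype libraries right (blue); points are single libraries and bars are group means, and Fasl is left out because most of its values are 0. All red points lie above all blue points for Lta, Tnfsf8, Tnfsf4, Tnf, Cd70 and Tnfsf11, and DTA-1 replicate 1 is the highest point for every ligand shown except Tnfsf10.

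Promoter sequence is shown for the 3 genes of the TNF and lymphotoxin locus, of which Tnf and Lta lay higher with DTA-1 and Ltb overlapped, and for Tnfsf8, the ligand with the largest fold change over all 6 libraries, though not without DTA-1 replicate 1. RefSeq (GRCm38.p6, the assembly of mm10) gave a window for 8 of the 10 ligands; Tnfsf4 and Cd70 had none. The windows are the 250 bases before the start annotated in RefSeq, 5′ to 3′ on the gene's strand. For Ltb and Tnfsf8 that start lies inside the gene span of GENCODE given below, so the end of these windows overlaps the span. They run from chr17:35202008-35202257 (minus strand) for Tnf, chr17:35205352-35205601 (minus) for Lta, chr17:35194257-35194506 (plus) for Ltb and chr4:63861285-63861534 (minus) for Tnfsf8. Capitals mark a TATA motif (TATAAA, gene strand) in Tnf and Lta and a match to the kappaB consensus, the binding motif of NF-kB (both strands), in Ltb.
Tnf: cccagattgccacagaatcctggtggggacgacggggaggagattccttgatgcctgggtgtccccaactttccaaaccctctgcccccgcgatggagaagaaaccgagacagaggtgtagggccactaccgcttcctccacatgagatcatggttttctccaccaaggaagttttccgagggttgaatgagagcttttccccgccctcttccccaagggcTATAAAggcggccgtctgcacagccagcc
Lta: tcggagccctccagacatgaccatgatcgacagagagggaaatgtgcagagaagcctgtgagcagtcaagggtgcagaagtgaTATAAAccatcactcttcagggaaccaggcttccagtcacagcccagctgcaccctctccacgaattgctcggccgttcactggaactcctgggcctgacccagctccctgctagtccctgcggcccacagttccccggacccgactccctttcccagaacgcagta
Ltb: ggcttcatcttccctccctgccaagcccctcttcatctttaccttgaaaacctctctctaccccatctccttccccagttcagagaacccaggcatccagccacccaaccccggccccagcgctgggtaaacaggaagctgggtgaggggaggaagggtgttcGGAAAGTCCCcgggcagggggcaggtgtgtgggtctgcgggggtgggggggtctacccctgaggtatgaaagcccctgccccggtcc
Tnfsf8: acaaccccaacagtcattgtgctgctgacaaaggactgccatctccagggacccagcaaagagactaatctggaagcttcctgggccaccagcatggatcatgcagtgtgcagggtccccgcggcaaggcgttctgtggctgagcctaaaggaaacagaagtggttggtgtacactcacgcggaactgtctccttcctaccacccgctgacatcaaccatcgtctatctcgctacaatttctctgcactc

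The TATA motif of Tnf lay 29 to 24 bases before the start and that of Lta 167 to 162 bases before it. The kappaB match of Ltb, GGAAAGTCCC, lay 87 to 78 bases before the RefSeq start, and so nearer to the GENCODE start. Among the 8 windows it was the single match to this consensus, and Tnfsf14 held the single AP-1 motif (TGANTCA, both strands, as TGAGTCA 160 to 154 bases before the start). Of all 32851 RefSeq windows of this length, 7.25% held the kappaB consensus, 6.75% the AP-1 motif and 7.59% the TATA motif. The matches describe these letters in these windows and no binding was measured.

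Tnf, Lta and Ltb sit side by side on chromosome 17 of GRCm38. In GENCODE, Tnf spans 35199381 to 35202007 and Lta 35203165 to 35205351, both on the minus strand with 1157 bases between them. Ltb, at 35194439 to 35196320 on the plus strand, lies 3060 bases from Tnf. No other GENCODE gene overlaps Tnf, while Lta and Ltb each overlap a microRNA gene annotated on their own strand.

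Tnf, which encodes the founding cytokine of the family, measured 74.3, 51.3 and 47.6 FPKM in DTA-1 replicates 1, 2 and 3, against 28.2, 26.3 and 31.1 FPKM in isotype replicates 1, 2 and 3. The lowest DTA-1 library lay well above the highest isotype library, and the isotype libraries lay close together. The group means were 57.7 ± 14.5 FPKM with DTA-1 and 28.5 ± 2.44 FPKM with the isotype (SD, n = 3 each). The log2 fold change was 0.97 ± 0.18 (limma adjusted p = 0.0888), and 0.77 ± 0.14 without DTA-1 replicate 1.

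Lta, which encodes lymphotoxin alpha, was the most abundant ligand in each of the 6 libraries. It measured 414, 196 and 168 FPKM in DTA-1 replicates 1, 2 and 3, against 114, 102 and 110 FPKM in isotype replicates 1, 2 and 3. The groups did not overlap, and DTA-1 replicate 1 stood apart from the other DTA-1 libraries. The log2 fold change was 1.13 ± 0.30 (limma adjusted p = 0.157), and without DTA-1 replicate 1 it was 0.74 ± 0.14. Lta made up between 34.1% and 40.8% of the summed FPKM of the 10 ligands in DTA-1 libraries and between 32.1% and 33.6% in isotype libraries.

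Ltb encodes lymphotoxin beta, which anchors lymphotoxin alpha at the cell surface as a heterotrimer. It measured 102, 59.8 and 48.4 FPKM in DTA-1 replicates 1, 2 and 3, against 67.7, 36.6 and 55.7 FPKM in isotype replicates 1, 2 and 3. The groups overlapped, and the high DTA-1 mean came from replicate 1. The log2 fold change was 0.36 ± 0.30 over all libraries (limma adjusted p = 0.669) and 0.06 ± 0.26 without DTA-1 replicate 1. Within this locus the values of Ltb thus overlapped between groups while those of Tnf and Lta, its neighbours, did not; a difference between the fold changes of these genes was not tested.

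Tnfsf4, Cd70 and Tnfsf8, which are among the ligands that costimulate lymphocytes, lay above every isotype library with DTA-1. Over all tested genes, 11.2% were higher without overlap. Tnfsf4, the gene of OX40 ligand (chromosome 1, 161395409 to 161418410, plus strand), measured 120, 93.2 and 97.0 FPKM in DTA-1 replicates 1, 2 and 3, against 35.1, 52.5 and 56.3 FPKM in isotype replicates 1, 2 and 3. It had the smallest p of the 10 ligands, at rank 46 of the 10501 genes tested. The log2 fold change was 1.11 ± 0.19 (limma adjusted p = 0.0817). Its DTA-1 libraries were close together, so that leaving out replicate 1 gave 1.0 ± 0.21.

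Cd70 encodes the ligand of CD27 and lies on chromosome 17 (57145997 to 57149777, minus strand). It was lower in level, with 27.4, 25.2 and 19.9 FPKM in DTA-1 replicates 1, 2 and 3, against 9.44, 10.4 and 15.6 FPKM in isotype replicates 1, 2 and 3. The groups did not overlap, and no DTA-1 library stood apart. The log2 fold change was 0.99 ± 0.20 (limma adjusted p = 0.101) and 0.90 ± 0.22 without DTA-1 replicate 1.

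Tnfsf8, the gene of CD30 ligand (chromosome 4, 63831308 to 63861347, minus strand), had the largest fold change over all 6 libraries. It measured 226, 66.6 and 61.4 FPKM in DTA-1 replicates 1, 2 and 3, against 41.5, 33 and 29.6 FPKM in isotype replicates 1, 2 and 3. DTA-1 replicate 1 held 3.53 times the mean of the other DTA-1 libraries. The ratio of group means was 3.40 with this library and 1.85 without it. The log2 fold changes were 1.48 ± 0.44 (limma adjusted p = 0.194) and 0.88 ± 0.17, and in both cases every DTA-1 library lay above every isotype library. Without DTA-1 replicate 1, the fold changes of Tnfsf4 and Cd70 were larger than that of Tnfsf8.

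**Figure D2:**
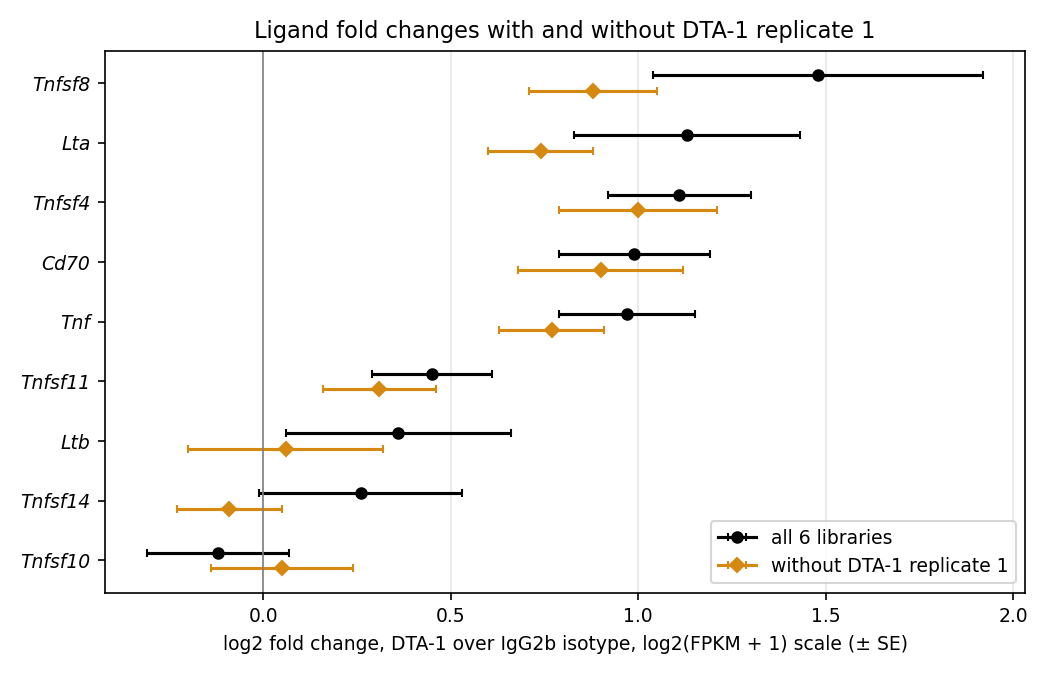
Log2 fold changes, DTA-1 over IgG2b isotype computed from log2(FPKM + 1), with SE bars, for 9 ligands; black circles use all 6 libraries and orange diamonds leave out DTA-1 replicate 1. Tnfsf8 moves most, to 0.88 without this library, while Tnfsf4 and Cd70 stay at 1.0 and 0.90, and Tnfsf14 and Tnfsf10 change sign close to 0.

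Among the remaining ligands, Tnfsf11 alone separated the groups. It encodes RANKL and lies on chromosome 14 (78277445 to 78308043, minus strand). It measured 17.6, 12.6 and 13.4 FPKM in DTA-1 replicates 1, 2 and 3, against 11.9, 9.37 and 9.68 FPKM in isotype replicates 1, 2 and 3. The gap between the groups was narrow, and the log2 fold change was 0.45 ± 0.16 (limma adjusted p = 0.255), or 0.31 ± 0.15 without DTA-1 replicate 1. Its unadjusted p of 0.0212 passed 0.05 with all libraries but not without DTA-1 replicate 1, isotype replicate 2 or isotype replicate 3.

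Tnfsf14 encodes LIGHT, a ligand of HVEM and of the lymphotoxin beta receptor (chromosome 17, 57189492 to 57194177, minus strand, 39.7 kb from Cd70). It measured 14.1, 6.56 and 5.92 FPKM in DTA-1 replicates 1, 2 and 3, against 7.35, 6.63 and 6.17 FPKM in isotype replicates 1, 2 and 3. DTA-1 replicate 1 alone was high, and the other DTA-1 libraries lay within or below the isotype range. The log2 fold change was 0.26 ± 0.27 (limma adjusted p = 0.746) and -0.09 ± 0.14 without DTA-1 replicate 1.

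Tnfsf10, the gene of the death ligand TRAIL (chromosome 3, 27317028 to 27342427, plus strand), measured 20.5, 28.8 and 29.9 FPKM in DTA-1 replicates 1, 2 and 3. In isotype replicates 1, 2 and 3 it measured 23.1, 35.3 and 27.8 FPKM. It was the single tested ligand with its lowest value in DTA-1 replicate 1, and the groups overlapped (log2 fold change -0.12 ± 0.19, limma adjusted p = 0.850). Without DTA-1 replicate 1 the log2 fold change was 0.05 ± 0.19.

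Fasl, the gene of Fas ligand (chromosome 1, 161780689 to 161788495, minus strand), was listed at 0 in DTA-1 replicates 1, 2 and 3 and in isotype replicate 1. Isotype replicates 2 and 3 were at 0.0878 and 0.0547 FPKM. At the estimated depth these values correspond to about 3.2 and 2.1 fragments, so Fasl was not detectable beyond a few fragments in any library and was not tested. The other 9 ligands rested on an estimated 153 to 16800 fragments per library, the fewest for Cd70 in isotype replicate 1 and the most for Tnfsf8 in DTA-1 replicate 1.

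DTA-1 replicate 1 had the highest value of the 6 libraries for 8 of the 9 tested ligands, and isotype replicate 2 for Tnfsf10. Over all tested genes, DTA-1 replicate 1 was the highest library for 25.3% and isotype replicate 2 for 28.0%. On the log2(FPKM + 1) scale, DTA-1 replicate 1 exceeded the mean of the other DTA-1 libraries by 1.80 for Tnfsf8, 1.19 for Lta, 1.06 for Tnfsf14, 0.91 for Ltb and 0.58 for Tnf. The excess was 0.41 for Tnfsf11, 0.33 for Tnfsf4 and 0.28 for Cd70, and Tnfsf10 lay 0.49 below (-0.49). Over all tested genes the median excess was 0.042, and 0.628% of genes exceeded 1. The ligands thus differed in how far this library stood out, most for Tnfsf8 and least for Cd70 among those that lay above the isotype. The summed FPKM of the 10 ligands was 1015, 540 and 491 in DTA-1 replicates 1, 2 and 3, against 338, 313 and 342 in isotype replicates 1, 2 and 3.

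**Figure D3:**
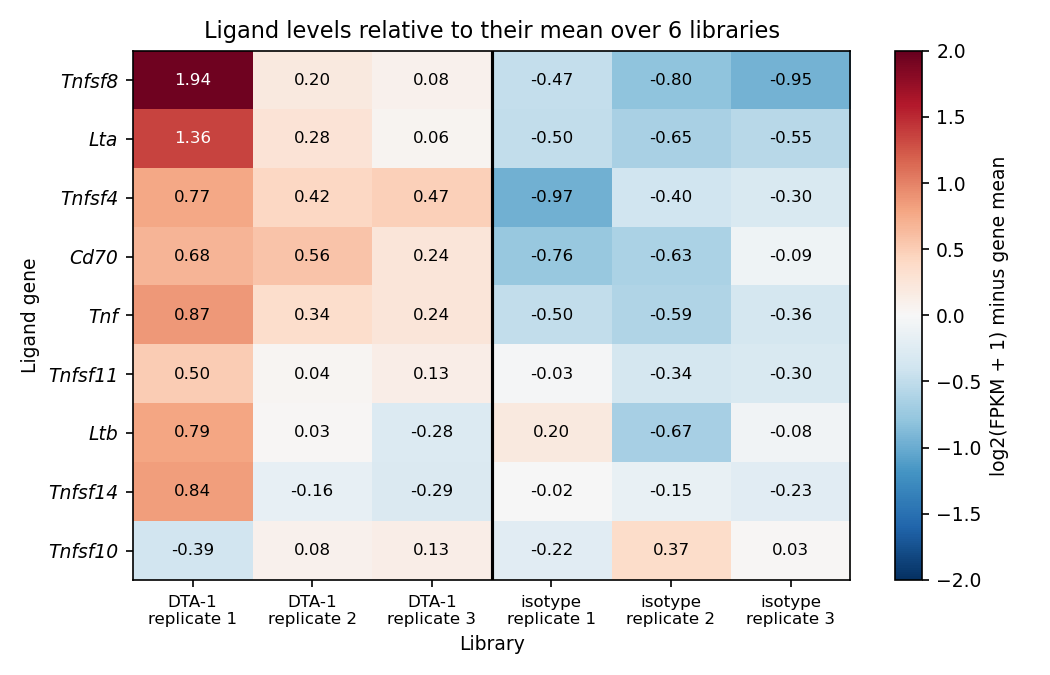
Log2(FPKM + 1) of 9 ligands (rows) in 6 libraries (columns, DTA-1 left of the line), with each gene's mean over the libraries subtracted; red is above and blue below that mean. Tnfsf8 stands 1.94 above its mean in DTA-1 replicate 1 and Lta 1.36 above, while Tnfsf10 shows the opposite sign in that library.

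Lta was highest and Fasl lowest in both groups, in FPKM, which can be compared between genes. By group mean, the DTA-1 libraries ran Lta, Tnfsf8, Tnfsf4, Ltb, Tnf, Tnfsf10, Cd70, Tnfsf11, Tnfsf14 and Fasl. The isotype libraries ran Lta, Ltb, Tnfsf4, Tnfsf8, Tnfsf10, Tnf, Cd70, Tnfsf11, Tnfsf14 and Fasl. Between neighbours with DTA-1, ranges over libraries did not overlap for Tnf above Tnfsf10, Cd70 above Tnfsf11 and Tnfsf14 above Fasl. With the isotype they did not overlap for Lta above Ltb, Tnf above Cd70, Tnfsf11 above Tnfsf14 and Tnfsf14 above Fasl. All other neighbours overlapped within their group. Several places in these orders rested on 1 library: Tnfsf8 lay above Tnfsf4 in DTA-1 replicate 1 but below it in DTA-1 replicates 2 and 3, and Ltb lay above Tnfsf4 in isotype replicate 1 alone. Tnfsf10 lay above Tnf in isotype replicate 2 alone.

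Of 8 further TNF family ligands, only Tnfsf9 was expressed at 1 FPKM or more in at least 3 libraries and was tested. Tnfsf9 encodes the ligand of the costimulatory receptor 4-1BB. It measured 11.6, 12.5 and 11.4 FPKM in DTA-1 replicates 1, 2 and 3, against 10.5, 9.58 and 9.06 FPKM in isotype replicates 1, 2 and 3, without overlap (log2 fold change 0.26 ± 0.12, limma adjusted p = 0.368). Tnfsf15, which encodes the ligand TL1A and lies 86.2 kb from Tnfsf8, had 4.09, 0.625 and 0.544 FPKM in DTA-1 replicates 1, 2 and 3. In isotype replicates 1, 2 and 3 it was at 0.25, 0.267 and 0.0816 FPKM, so DTA-1 libraries lay above the isotype and replicate 1 stood apart, as for Tnfsf8. Tnfsf12, which encodes TWEAK, averaged 0.732 ± 0.194 FPKM with DTA-1 and 1.16 ± 0.36 FPKM with the isotype (SD, n = 3 each), with overlap. Tnfsf18, the gene of the natural ligand of GITR, stayed at or below 0.0255 FPKM in every library, which corresponds to about 1 fragment. Tnfsf13, Tnfsf13b, Cd40lg and Eda stayed below 1 FPKM.

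Of 14 genes for receptors of the 10 ligands, 10 were tested. Tnfrsf11a and Tnfrsf10b were higher without overlap and none was lower without overlap, against 11.2% and 10.5% of all tested genes. None passed over all genes, 4 were higher and none lower at an unadjusted p under 0.05 (6.22% and 7.73% of all tested genes), and the list median log2 fold change was 0.10. With library quality weights Tnfrsf10b passed (limma adjusted p = 0.0372), where 1.53% of tested genes were higher. Tnfrsf11a, which encodes RANK, the receptor of the Tnfsf11 product, measured 24.2, 8.46 and 8.08 FPKM in DTA-1 replicates 1, 2 and 3, against 5.02, 5.16 and 4.89 FPKM in isotype replicates 1, 2 and 3. The groups did not overlap and DTA-1 replicate 1 stood apart, and the log2 fold change was 1.10 ± 0.35 (adjusted p = 0.216 by limma), or 0.62 ± 0.13 without that library. Tnfrsf10b, the TRAIL receptor gene, measured 54.9, 43.6 and 42.6 FPKM in DTA-1 replicates 1, 2 and 3, against 35.1, 30.4 and 31.8 FPKM in isotype replicates 1, 2 and 3. It too was without overlap (0.52 ± 0.13, limma adjusted p = 0.157).

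The OX40 gene Tnfrsf4 measured 62.9, 27.7 and 22.9 FPKM in DTA-1 replicates 1, 2 and 3, against 27.3, 9.63 and 17.4 FPKM in isotype replicates 1, 2 and 3, and the groups overlapped (0.99 ± 0.43, limma adjusted p = 0.353; 0.57 ± 0.37 without DTA-1 replicate 1). Fas averaged 47.4 ± 10.0 FPKM with DTA-1 and 32.3 ± 7.89 FPKM with the isotype (SD, n = 3 each), also with overlap (0.55 ± 0.21, limma adjusted p = 0.289). Tnfrsf8, the gene of CD30 and the most abundant receptor of the list, averaged 424 ± 120 FPKM with DTA-1 and 472 ± 92.7 FPKM with the isotype (-0.18 ± 0.24, limma adjusted p = 0.807). Tnfrsf1b, which encodes TNF receptor 2, averaged 42.0 ± 2.91 FPKM with DTA-1 and 52.7 ± 8.43 FPKM with the isotype (-0.31 ± 0.14, limma adjusted p = 0.388). TNF receptor 1 (Tnfrsf1a), in contrast, averaged 1.17 ± 0.345 FPKM with DTA-1 and 1.30 ± 0.675 FPKM with the isotype. CD27 (Cd27), the receptor of CD70, stayed below 1 FPKM in all libraries, as did the lymphotoxin beta receptor gene Ltbr.

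**Figure D4:**
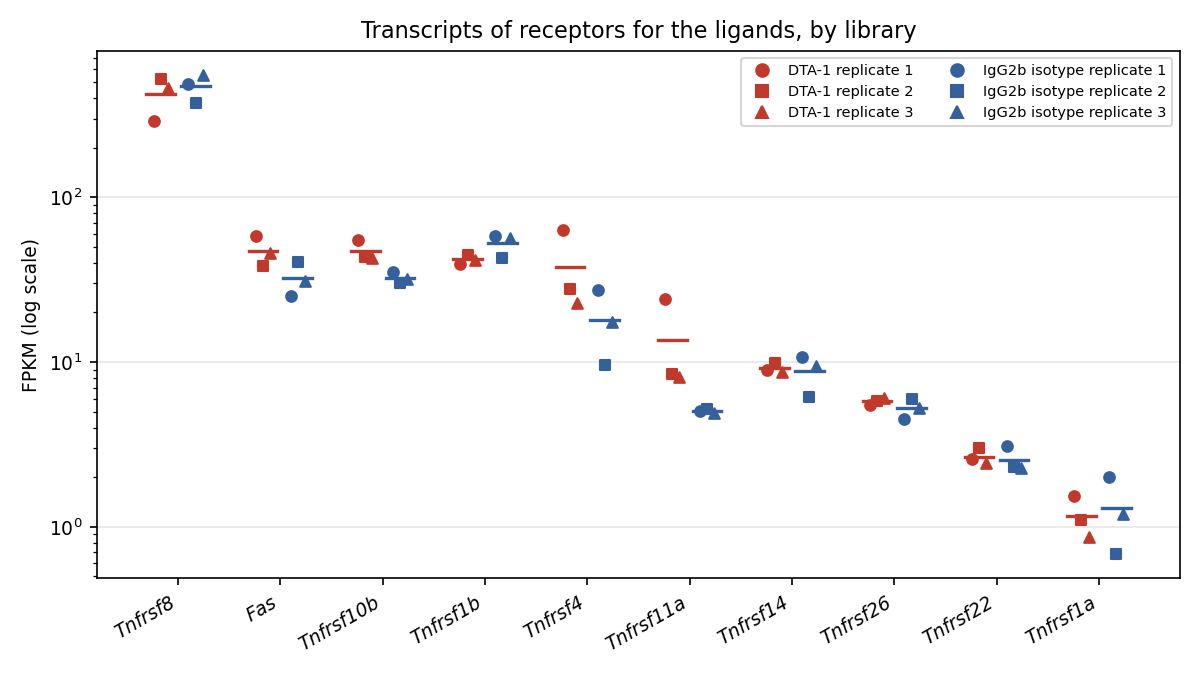
FPKM on a log scale for the 10 tested receptor genes, with DTA-1 libraries left (red) and IgG2b isotype libraries right (blue); points are single libraries and bars are group means. Groups are separate for Tnfrsf10b and Tnfrsf11a, and Tnfrsf8 is the most abundant receptor in both groups.

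Of 7 fixed genes that act in the release of ligands from the membrane, 5 were tested. None of these 5 had an unadjusted p under 0.05 (6.22% of all tested genes higher and 7.73% lower) and none separated the groups (11.2% higher and 10.5% lower). Adam17, the protease that sheds TNF, averaged 29.3 ± 0.841 FPKM with DTA-1 and 26.1 ± 3.69 FPKM with the isotype (SD, n = 3 each; log2 fold change 0.17 ± 0.13, limma adjusted p = 0.629). Adam10, a related sheddase, averaged 25.4 ± 1.59 FPKM with DTA-1 and 30.9 ± 5.83 FPKM with the isotype (-0.26 ± 0.15, limma adjusted p = 0.511). Rhbdf2, which encodes iRhom2 and brings ADAM17 to the cell surface, averaged 13.3 ± 1.92 FPKM with DTA-1 and 11.1 ± 3.68 FPKM with the isotype. Frmd8, which stabilises that complex, and Timp3, an inhibitor of ADAM17, had log2 fold changes of 0.07 ± 0.19 and 0.13 ± 0.21.

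Of 13 tested genes of proteins that act on AU-rich or stem-loop mRNAs such as that of Tnf, 1 was higher and 1 lower at an unadjusted p under 0.05, against 6.22% and 7.73% of all tested genes. Without overlap, 2 were higher and 2 lower, against 11.2% and 10.5% of all tested genes, and the median log2 fold change was 0.00. The shares of this list are thus near those of all genes. Zc3h12a, which encodes the RNase Regnase-1, measured 84.3, 48.1 and 43.2 FPKM in DTA-1 replicates 1, 2 and 3, against 35.9, 29.1 and 34.6 FPKM in isotype replicates 1, 2 and 3. The groups did not overlap (0.74 ± 0.24, limma adjusted p = 0.216), and DTA-1 replicate 1 was again highest. Without that library the log2 fold change of Zc3h12a was 0.45 ± 0.15. Tia1, which encodes a translational repressor, averaged 13.2 ± 1.11 FPKM with DTA-1 and 16.7 ± 2.25 FPKM with the isotype (-0.31 ± 0.13, limma adjusted p = 0.350). Zfp36, which encodes tristetraprolin, the decay factor of Tnf mRNA, averaged 16.8 ± 4.40 FPKM with DTA-1 and 23.6 ± 6.97 FPKM with the isotype, with overlap (-0.46 ± 0.25, limma adjusted p = 0.462). Its relative Zfp36l2, the most abundant gene of this list, averaged 123 ± 5.93 FPKM with DTA-1 and 142 ± 13.2 FPKM with the isotype (-0.21 ± 0.11, limma adjusted p = 0.481). Zfp36l1, Hnrnpd and Khsrp had log2 fold changes of 0.39 ± 0.19, -0.32 ± 0.24 and -0.16 ± 0.12.

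For the ligands with the smallest p, the tested genes closest in library pattern are named. Any gene has such nearest genes, and whether these lie unusually close was not tested. Likeness was measured as the root mean square distance between profiles of log2(FPKM + 1), each centred on its gene's mean over the 6 libraries, as a description of these libraries. Closest to Tnfsf4 were Hes1, Grap and Pik3r5, at distances of 0.147, 0.153 and 0.153. Closest to Tnf were Icam1, Lmna and Gas2l1, at 0.066, 0.094 and 0.104. Icam1, an adhesion molecule gene, measured 137, 105 and 94.9 FPKM in DTA-1 replicates 1, 2 and 3, against 52.6, 51.4 and 65.5 FPKM in isotype replicates 1, 2 and 3. Closest to Cd70 were 6430571L13Rik, Tmem176b and Icam1, at 0.119, 0.120 and 0.130. Lta, the neighbour of Tnf in the genome, ranked 99 in likeness to Tnf (0.228), behind Cd70 at rank 53 (0.194), and Ltb ranked 971 (0.397).

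The libraries were alike in depth, at an estimated 18800000 to 20500000 fragments, with totals of 574195 to 606724 FPKM. All 12 fixed ILC2 markers, among them Gata3, Il1rl1 and Rora, were expressed in every library. Their summed level lay between 10380 and 11920 FPKM with DTA-1 and between 6655 and 7863 FPKM with the isotype. Most of this sum came from the cytokine genes Il13 and Il5. Il13, the most abundant, averaged 5422 FPKM with DTA-1 and 2326 FPKM with the isotype. Il5 averaged 3183 and 2169 FPKM. The median log2 fold change over the 12 markers was -0.22, so the higher sum does not describe the list as a whole. Without overlap, Il13 was higher with DTA-1, while Klrg1 and Il1rl1 were lower (11.2% and 10.5% of all tested genes). Of the markers of T cells, 9 of 12 were in the tables, and their summed level was 10.3 to 10.8 FPKM with DTA-1 and 13.6 to 16.7 FPKM with the isotype, most of it Cd3g, with Cd4, Cd8a and Cd8b1 near 0. Cd28 averaged 1.26 FPKM with DTA-1 and 3.79 FPKM with the isotype, and Cd3g 8.01 and 9.67 FPKM. Both were lower without overlap (10.5% of all tested genes). Cd3e averaged 0.715 and 0.750 FPKM, and Cd6 was higher with DTA-1, at 0.151 against 0.0460 FPKM. Epithelial markers (7 of 7) summed to between 1.54 and 2.22 FPKM with DTA-1 and between 3.89 and 4.65 FPKM with the isotype, most of it Epcam, with Sftpc and Krt8 near 0. Markers of macrophages, monocytes and dendritic cells summed to between 5.64 and 6.57 FPKM with DTA-1 and between 7.0 and 7.84 FPKM with the isotype. Most of it was Cd68 and Xcr1, with Lyz2 and Csf1r near 0. Zbtb46 of this list lay higher with DTA-1 without overlap, averaging 1.07 FPKM against 0.298 FPKM with the isotype. In these 3 lists, the sums were lower in the DTA-1 libraries, where 6 ligands were higher, and their part in the result was not tested. The sums of the remaining lists overlapped between groups. Fibroblast and endothelial markers summed to 19.9 to 38.8 FPKM with DTA-1 and 31.7 to 43.8 FPKM with the isotype, most of it Pecam1. Mast cell and basophil markers, mostly Kit, reached 16.6 FPKM, and B cell markers, mostly Cd79b, 7.8 FPKM.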

How the data were processed

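The authors deposited 1 table per library with a value per gene symbol. The header names no unit. The deposited values were read as FPKM: they hold fractions, and the steps between low values shrink as transcripts get longer. Per the submitters' processing notes, TopHat was the aligner and mm10 the genome. The sources used here do not name the program that made the values, its annotation or its use of strand, so fragments of overlapping genes cannot be assigned. Depth was estimated from those steps with GENCODE M21 lengths (95.5% of listed genes had a length), and fragments per gene with its longest transcript, so both are approximate.

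The 10501 genes that reached 1 FPKM in 3 or more libraries entered limma 3.58.1 (R 4.3.3) as log2(FPKM + 1) (empirical Bayes with trend and robust options, group as the single term, 2-sided), with Benjamini-Hochberg adjustment over all of them. The added 1 FPKM makes fold changes of low genes smaller than their ratios. Groups and replicate numbers came from the titles. The treatment tags of replicates 2 and 3 disagree with the titles, giving antibody names with other numbers, and were not used. On simulated data for this comparison (200 of 10501 genes changed) the procedure recovered 34.8%, 92.4% and 98.8% of genes changed by 1.5-, 2- and 4-fold. The simulated noise was normal, with each gene's moderated spread. Real genes vary together, which was not simulated. These shares can be too high for the data. There, Tnf, Tnfsf4 and Cd70 had ratios of group means of 2.02, 2.15 and 2.05 and did not pass. The reason was not tested. No libraries were near copies. DTA-1 replicates 2 and 3 were the most alike, with an SD of log2 differences of 0.175. Other pairs within groups lay between 0.328 and 0.473. The 10 ligands and all lists were chosen with earlier results of these data known. All ligands are named; of the other lists, up to 5 genes with the smallest p and 3 with the highest level, and further genes named at low levels were chosen after their values were seen. Alternatives covered the pseudocount (0.1 and 5), the filter, scaling, a replicate block, the variance model, library weights and leaving out each library. Figures used matplotlib 3.10.9.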

Additional observations from a re-analysis of the deposited data

How the results depend on the processing

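The count of 6 ligands above every isotype library was the same under both scalings, the alternatives that could alter it in either direction. With an unadjusted p under 0.05 there were 5 or 6, and Tnfsf11 was the one missing where there were 5. No ligand passed over all genes with any library left out; over all genes the counts were then 1 to 3 higher and 1 lower, with 1 higher without DTA-1 replicate 2, DTA-1 replicate 3 or isotype replicate 3. The count of higher genes was 1 without a filter, and 2 genes were lower with equal totals. With library quality weights 161 genes were higher and 314 lower, among them 3 ligands (Tnf, Tnfsf4 and Cd70, limma adjusted p = 0.0145, 0.0127 and 0.0292). The weights put DTA-1 replicate 2 highest at 5.95 and isotype replicate 2 lowest at 0.263. Isotype replicate 3 had the highest weight of its group, at 1.77, so the weighted fit rested mostly on 1 library per group. With the replicate block 59 genes were higher and 126 lower, among them 5 ligands (Tnf, Lta, Tnfsf4, Cd70 and Tnfsf8, adjusted p between 0.0404 and 0.0498 in limma). The receptor gene Tnfrsf4 passed there too (adjusted p = 0.0472 in limma). The labels do not say whether equal numbers mark paired libraries. Deviations from group means correlated at 0.39, -0.10 and -0.13 for numbers 1, 2 and 3. Not every library correlated best with its own number. DTA-1 replicate 3 correlated at 0.49 with isotype replicate 2, and DTA-1 replicate 2 at 0.38 with isotype replicate 3. With 3 libraries per group the deviations depend on each other, so these correlations cannot settle whether libraries were paired. Why the counts differed between fits was not tested. Some log2 fold changes near 0 changed sign. With each library left out in turn, Tnfsf10 ranged between -0.26 and 0.05 (0.04 with weights), Tnfsf14 between -0.09 and 0.47, Tnfrsf8 between -0.35 and 0.08, Timp3 between -0.09 and 0.34 and Frmd8 between -0.13 and 0.24 (-0.01 with weights). Leaving out DTA-1 replicate 1 turned the sign of Tnfsf10, Tnfsf14 and Tnfrsf8, isotype replicate 2 that of Tnfsf10 and Frmd8, and isotype replicate 1 that of Timp3. Depth limits Fasl, Tnfsf18 and the other ligands below 1 FPKM.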
